A study of Mus musculus with 2 samples.

Results

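Epididymal white adipose tissue stores triglyceride in the lipid droplets of adipocytes. The genes described here are 10 genes of the lipid droplet, of lipolysis and of fatty acid and glycerol transport: Lipe, Pnpla2, Mgll, G0s2, Abhd5, Cidec, Plin2, Fabp4, Aqp7 and Cd36. They were found by gene symbol in the array's probe annotation, which gave 21 probe sets of the 22690 in the deposited table, and all 10 genes had at least 1. The rule that found their probe sets uses gene symbols and no measured value. The 10 genes themselves were chosen with earlier results of these data known, so their counts beside those of all genes are description only.

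Male mice without PPARβ/δ, a nuclear receptor encoded by Ppard, were compared with wild-type males, all on chow. The knockout label gives a mixed Sv129/C57BL/6 background and an age of 12 weeks. The wild-type label gives strain 129S1/SvJae and an age of 12 to 16 weeks, whereas the design text calls the controls littermates, so strain and age cannot be told apart from genotype here. The labels name no Cre driver or allele. The RNA of 5 animals was combined into 1 pool for each genotype, and each pool was put on 1 Affymetrix array, so each probe set has 1 wild-type and 1 knockout value. No spread between animals exists, no test was possible, and every difference below is a difference between these 2 arrays, whose number limits the precision.

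In adipocytes, triglyceride is broken down stepwise: adipose triglyceride lipase removes the first fatty acid, hormone-sensitive lipase the next, and monoacylglycerol lipase the last. Protein coats on the droplet and partner proteins of the first lipase set how much fat is exposed to these enzymes. Fatty acids then travel on binding proteins and membrane carriers, and glycerol leaves through a channel. Fasting hormones and catecholamines raise lipolysis through cyclic AMP, and insulin lowers it. PPAR receptors bind fatty acids, and several of the genes below are known PPAR targets in adipocytes.

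Values are the authors' GCRMA intensities in arbitrary units, and a difference is the log2 value in knockout less that in wild type. Paired intensities give the wild-type pool first and the knockout pool next. An intensity of 32 (log2 of 5) served as a floor below which a probe set was treated as dim. Of the 21 probe sets, 19 reached the floor on at least 1 array. The other 2, 1 of Pnpla2 and 1 of Mgll, were below it in both pools. Where a gene had several probe sets above the floor, the brightest on average represents it in counts of genes.

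Most of these genes read lower in the knockout. Of the 10 genes, 8 were lower, as 55.5% of all genes were, and 2 higher, with a median log2 difference of -0.87 against -0.08 over all 6533 genes that reached the floor. G0s2, Cidec, Lipe and Pnpla2 were at least 2-fold lower, which 9.14% of all genes were. None was 2-fold higher, as 13.7% of all genes were. Of the 19 probe sets, 9 were at least 2-fold lower, against 8.99% of all kept probe sets that name 1 gene. Lower by any amount were 17, but the share of all kept probe sets that were lower was not counted. Several of the 19 belong to the same gene, so neither count is one of separate genes. Dim genes are scarce among the 10, so bright genes are the closer background: of 881 genes with a mean log2 intensity of 10 or more, 6.24% were at least 2-fold lower and 58.2% were lower by any amount.

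**Figure D1:**
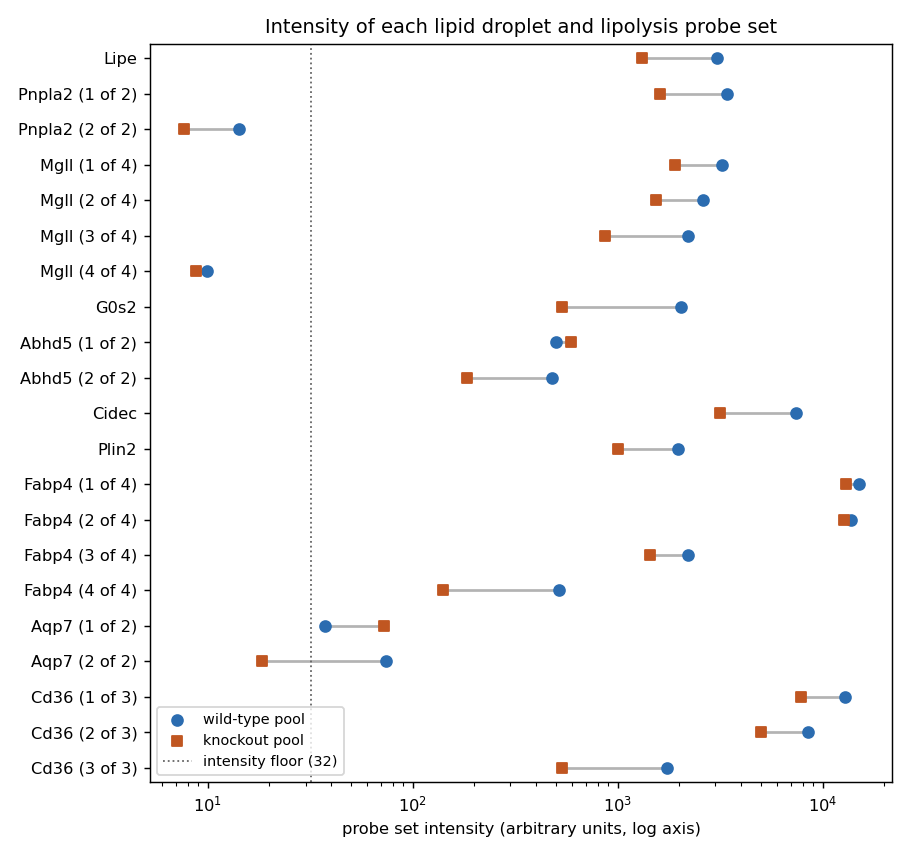
Intensity (arbitrary units, log axis) of all 21 probe sets of the 10 genes in the wild-type pool (circles) and the knockout pool (squares), numbered within a gene from the brightest on average; the dotted line is the floor of 32. The knockout square lies to the left for all but 1 probe set of Abhd5 and 1 of Aqp7.

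The lipases were lower at every probe set above the floor. Lipe (1422820_at, chromosome 7), hormone-sensitive lipase, read 3047 in wild type and 1321 in knockout. This is a 2.31-fold lower intensity, a log2 difference of -1.21, and it ranked 377 from the lowest of the 6533 genes. The knockout value, 43.4% of wild type, rests on the only probe set of this gene.

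Pnpla2 (1428143_a_at, chromosome 7), adipose triglyceride lipase, was at 3406 and 1602, 2.13-fold lower (log2 difference -1.09). Its other probe set, 1428591_at, was at 14.2 and 7.63, both under the floor, so no fold is given for it. The folds of Lipe and Pnpla2, which act in sequence on the same fat, were 2.31 and 2.13.

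Mgll (chromosome 6), monoacylglycerol lipase, had 3 probe sets above the floor, all lower in the knockout pool. The brightest, 1426785_s_at, was at 3223 and 1900 (log2 difference -0.76). The next, 1450391_a_at, was at 2610 and 1532 (-0.77). The dimmest, 1453836_a_at, was at 2204 and 871 (-1.34). The first pair lay 0.01 apart on the log2 scale and only the dimmest was past 2-fold. The remaining probe set, 1431331_at, was at 9.93 and 8.79, under the floor in both pools.

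Of the partners of adipose triglyceride lipase, the inhibitor G0s2 was lower and the coactivator Abhd5 had no settled direction. G0s2 (1448700_at, chromosome 1), a small protein that binds and inhibits this lipase, read 2028 in wild type and 535 in knockout. It was 3.79-fold lower (log2 difference -1.92), the largest decrease among the probe sets that represent the 10 genes, and ranked 69 from the lowest of 6533 genes. The lipase it inhibits was 2.13-fold lower.

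Abhd5 (chromosome 9), also called CGI-58, is the coactivator of the same lipase, and its 2 probe sets disagreed. The first, 1417566_at, read 500 in wild type and 590 in knockout, 1.18-fold higher (log2 difference 0.24). The other, 1417565_at, was at 476 and 184, 2.58-fold lower (-1.37). Their range of 1.61 on the log2 scale was wider than that of 94.2% of the 2137 genes with several probe sets above the floor, so no direction is given for Abhd5. The annotation lists 1 accession for both, and the transcript part each covers was not analysed here.

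The DNA just upstream of Pnpla2, its inhibitor, its coactivator and Cidec is shown because these are the genes with a promoter window at the outermost RefSeq start among the lipase, its partners and the 2-fold lower genes. Each run is the 250 bases before the start, 5′ to 3′ on the gene's strand, from RefSeq on build GRCm38.p6. Capitals mark matches on either strand to any of 5 motifs. The hexamer that nuclear receptors such as the PPARs bind was searched as AGGTCA. The box that positions the start in many tissue-restricted genes was searched as TATAAA. The box bound by the factor NF-Y was searched under its own name, CCAAT. The element bound by Sp1 was searched as GGGCGG, and the E-box bound by many helix-loop-helix factors was searched as CACGTG.
Pnpla2 chr7:141454938-141455187, plus strand: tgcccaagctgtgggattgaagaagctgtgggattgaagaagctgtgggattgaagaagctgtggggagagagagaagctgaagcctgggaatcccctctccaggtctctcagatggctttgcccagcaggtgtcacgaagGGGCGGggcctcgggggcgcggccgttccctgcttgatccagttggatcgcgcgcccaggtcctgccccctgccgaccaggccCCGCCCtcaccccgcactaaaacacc
G0s2 chr1:193273189-193273438, minus strand: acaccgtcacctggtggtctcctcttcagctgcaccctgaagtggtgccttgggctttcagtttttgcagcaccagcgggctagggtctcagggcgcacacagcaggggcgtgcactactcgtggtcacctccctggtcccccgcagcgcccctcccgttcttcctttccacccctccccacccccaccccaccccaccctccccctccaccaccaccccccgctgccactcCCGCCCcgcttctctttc
Abhd5 chr9:122351366-122351615, plus strand: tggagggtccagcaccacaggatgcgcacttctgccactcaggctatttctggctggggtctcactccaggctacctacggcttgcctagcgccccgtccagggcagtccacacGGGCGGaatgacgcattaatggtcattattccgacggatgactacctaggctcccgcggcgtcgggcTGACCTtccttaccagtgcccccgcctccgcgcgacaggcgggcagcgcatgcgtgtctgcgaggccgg
Cidec chr6:113435761-113436010, minus strand: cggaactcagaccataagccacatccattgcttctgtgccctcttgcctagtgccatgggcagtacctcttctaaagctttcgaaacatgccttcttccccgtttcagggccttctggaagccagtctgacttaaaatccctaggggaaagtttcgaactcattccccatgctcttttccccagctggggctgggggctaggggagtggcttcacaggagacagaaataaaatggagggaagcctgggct

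Pnpla2 held 2 matches to GGGCGG, G0s2 held 1, and Abhd5 held 1 beside a match to AGGTCA read on the other strand. Cidec held no match to any of these letters. Over all windows, which also take in the 50 bases after the start, 9 of the 10 genes had 13 windows, since several have more than 1 start. GGGCGG was found in 8 of these 13 windows and in 35.7% of all 32851 windows. AGGTCA was found in 5 of 13 and in 16.3% of all, CACGTG in 3 and 7.15%, CCAAT in 2 and 37.4%, and TATAAA in none and 13.6%. An exact copy of the PPAR-type element, AGGTCA repeated in the same direction with 1 base between, was in none of the 13. It was in 0.0396% of all windows. Inexact copies and DNA outside the windows were not searched, so these genes may still have such elements. The windows of Aqp7 overlap, so their matches are partly the same bases. These are letter matches only.

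Both genes of the droplet coat were lower. Cidec (1452260_at, chromosome 6), also called FSP27, joins droplets into the large droplet of white fat cells. It read 7382 in wild type and 3159 in knockout, 2.34-fold lower (log2 difference -1.22). Plin2 (1448318_at, chromosome 4), perilipin 2, coats droplets in many cell types and is a known PPAR target. It was at 1973 and 1006, 1.96-fold lower (-0.97), just short of 2-fold. Each has 1 probe set.

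Of the carriers, Cd36 was lower throughout, Fabp4 was lower by an amount that depended on the probe set, and Aqp7 had no settled direction. Cd36 (chromosome 5), the membrane receptor that takes up long-chain fatty acids, was at 12845 and 7872 on 1450883_a_at (log2 difference -0.71). On 1423166_at it was at 8531 and 4995 (-0.77), and on 1450884_at at 1736 and 535 (-1.70). The direction was the same on all 3, and the factor ran from 1.63-fold to 3.24-fold. Cd36 is also made by macrophages and by endothelial cells of small vessels, whose marker lists are given below.

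Fabp4 (chromosome 3), the cytosolic fatty acid-binding protein aP2 of adipocytes, was lower on all 4 of its probe sets by very different factors. On 1417023_a_at it was at 15004 and 13018 (log2 difference -0.20), and on 1451263_a_at at 13692 and 12743 (-0.10). On 1424155_at it was at 2195 and 1431 (-0.62). On the dimmest, 1425809_at, it was at 516 and 140, 3.68-fold lower (-1.88). The brightest pair differed by 1.15-fold or less. Their range of 1.77 was wider than that of 95.0% of genes with several probe sets.

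Aqp7 (chromosome 4), the aquaglyceroporin through which glycerol leaves the fat cell, read close to the floor. On 1418848_at it read 37.2 in wild type and 72.6 in knockout (log2 difference 0.96). On 1418849_x_at it was at 73.9 and 18.3, the latter under the floor, which gives an at least 2.31-fold lower value. The probe sets pointed in opposite directions, and with the value under the floor set to it their range was 2.17. Ranges taken the same way were narrower in 97.1% of the genes with several probe sets. The suffix of the second marks probes that may also match other transcripts. Aqp7 is also known to be made by testis germ cells.

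The 9 probe sets at least 2-fold lower were those of G0s2, Cidec, Lipe and Pnpla2 named above and 1 each of Mgll, Abhd5, Fabp4, Aqp7 and Cd36. The mean over a gene's probe sets was negative for all 10 genes, though the probe sets of Abhd5 and of Aqp7 disagreed in direction. The share of all genes with a negative mean was not counted. By this mean 5 of the 10 genes were at least 2-fold lower, the fifth being Cd36 (-1.06), as were 8.88% of all genes. For Aqp7 that mean was -0.12 with the value under the floor set to the floor.

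**Figure D2:**
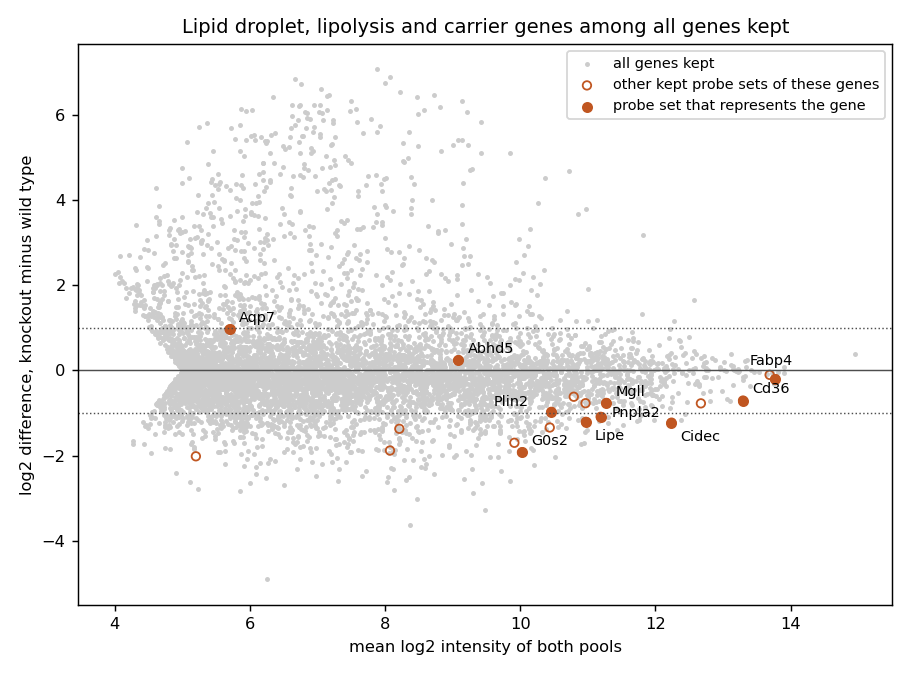
Log2 difference (knockout minus wild type) against mean log2 intensity for all 6533 genes kept (grey), the probe sets that represent the 10 genes (filled, named) and their other kept probe sets (open); dotted lines mark 2-fold. G0s2 lies lowest of the filled points at -1.92, and Fabp4, the brightest, lies at -0.20.

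Other genes of the same pathways were taken from 5 lists chosen by function. Of 25 further lipid droplet coat and biogenesis genes, 14 reached the floor: 10 were lower (3 by 2-fold or more), 4 were higher, and the median log2 difference was -0.48. Plin4, an adipocyte perilipin, read 5172 in wild type and 2313 in knockout, 2.24-fold lower, while Plin3, the widely made perilipin, was at 174 and 154 (-0.17). The lowest was Cavin1, a caveolar coat protein, at 1733 and 569 (-1.61). The highest was Pcyt1a, a phosphatidylcholine synthesis enzyme, at 36.4 and 60.9 (0.74, with probe sets from -0.72 to 1.17). Cidea and Cideb, the relatives of Cidec, and Plin5 were under the floor in both pools.

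Of 22 other lipases and their cofactors, 14 reached the floor, with 8 lower, 6 higher and a median of -0.32. Pnpla3, the closest relative of Pnpla2, was at 1161 and 94.6, 12.3-fold lower. Of the further patatin-domain relatives, Pnpla6 was at 47.8 and 48.3 and Pnpla8 at 856 and 629 (-0.44). Abhd4, which acts on N-acyl phospholipids, was highest, at 254 and 567 (1.16). Abhd12 was at 688 and 740, and Abhd6 was under the floor in both pools.

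Genes of hormonal control of lipolysis were lower in 11 of 12 measured cases, 6 by 2-fold or more, and their median was -0.89. The lowest was Npr3, the natriuretic peptide clearance receptor, reading 2972 in wild type and 725 in knockout (-2.03). The 1 higher gene, Akap1, an anchor for protein kinase A at mitochondria, was at 61.1 and 608 (3.31), with another probe set at -0.22.

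The fatty acid-binding protein family was split. Fabp5, the epidermal type that adipocytes also make, was at 1730 and 952 (-0.86, and -1.28 on its other probe set). Fabp9, the testis type, was at 90.6 and 5135, 56.7-fold higher in the knockout pool. Fabp3, the heart type, was at 25.4, under the floor, and 114, at least 3.57-fold higher. Fabp1, Fabp2, Fabp6 and Fabp7 were under the floor in both pools. Over the whole list of fatty acid uptake, binding and activation, 15 of 29 genes reached the floor, 8 lower and 7 higher, with a median of -0.23. Its lowest gene was Lrp1, a lipoprotein receptor, at 503 and 144 (-1.81).

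Among water and glycerol channels and glycerol enzymes, only 5 of 16 genes reached the floor, with a median of 0.77. Aqp1, a water channel of small vessels, was at 994 and 471 (-1.08), and Aqp9, an aquaglyceroporin also made in the epididymis, was at 56.8 and 96.6 (0.77). Gpd1, the cytosolic glycerol-3-phosphate dehydrogenase, was lowest, at 899 and 344 (-1.39). Gk2, a testis glycerol kinase, was highest, at 24.6, under the floor, and 2636, at least 82.4-fold higher. Aqp2, Aqp3, Aqp4, Aqp5 and Aqp8 were under the floor in both pools.

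**Figure D3:**
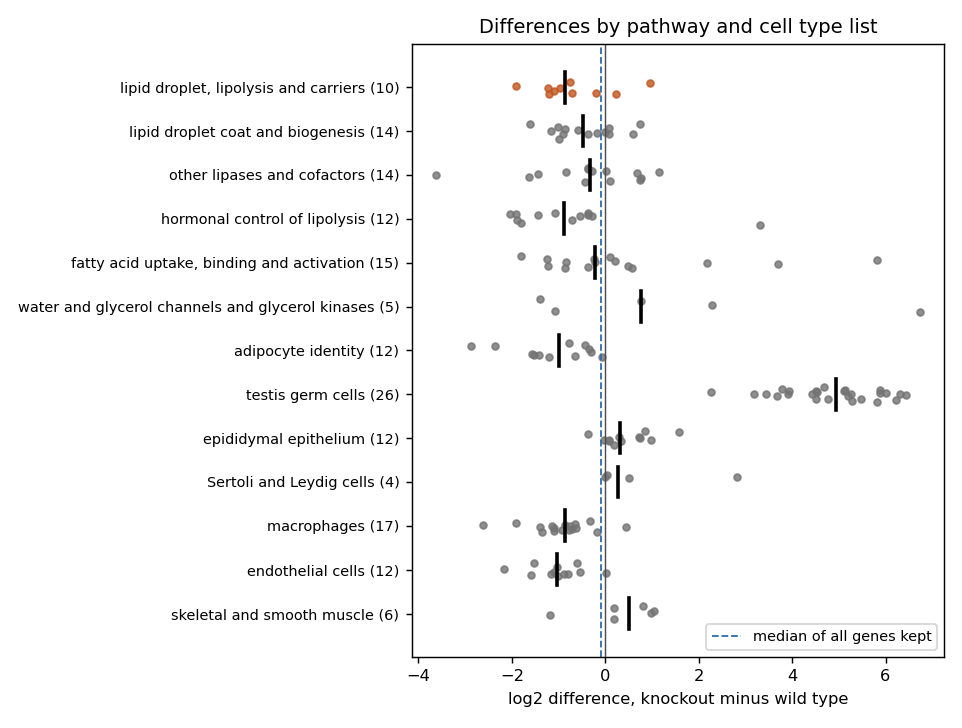
Log2 difference (knockout minus wild type) of each kept gene (points, as measured, values under the floor included) in the 10 genes described and in 5 pathway and 7 cell type lists, with the number of genes in parentheses; black bars are medians and the dashed line is the median of all genes kept (-0.08). The 10 genes centre on -0.87, adipocyte identity genes on -0.99 and testis germ cell markers on 4.94.

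Markers of cell types also differed between the pools, some lists lower and some higher in knockout. Their part in the differences of the 10 genes was not tested. Adipocyte markers were read in both pools, as the fat label would have it, with Adipoq, the adipokine adiponectin, at 10259 in wild type and 8030 in knockout. Epididymal epithelium markers were also read in both pools, and testis germ cell markers mainly in knockout. The fat label therefore does not cover every marker read, and the values are given below. All 12 measured adipocyte identity genes were lower, 6 by 2-fold or more, and their median was -0.99. They ran from Lep, leptin (-2.87), to Car3, a carbonic anhydrase (-0.06), and their summed intensity was 50523 and 36720. Such sums compare the same probe sets between the pools and are not amounts of RNA. Of the 10 genes described here, 8 lay inside that range. The range is wide and takes in the median of all genes kept (-0.08). The share of all genes inside it was not counted, so the 8 are not read as a result. The representing probe sets of Abhd5 and Aqp7 lay above the range. The other probe set of Abhd5 (-1.37) and the mean over probe sets of either gene lay inside. In pooled tissue RNA, fewer adipocytes, less RNA of these genes per adipocyte and a larger share of RNA from other tissue cannot be told apart.

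Testis germ cell markers were higher in the knockout pool for all 26 measured, from Sycp3 (2.25) to Meig1 (6.45), with a median of 4.94, or 4.60 with values under the floor set to it. Their intensities summed to 4127 in wild type and to 79992 in knockout. Epididymal epithelium markers summed to 55254 and 65169, 10 of 12 higher, from Sult1e1 (-0.38) to Defb1 (1.57), with a median of 0.32. Of 14 Sertoli and Leydig cell markers with a probe set 4 reached the floor: Wt1 (32.2 and 31.9), Sox9 (37.9 and 39.1), Inhbb (157 and 225) and Cyp17a1 (44.0 and 312, a difference of 2.82). Their sum was 272 and 607. The other 10, Amh, Dmrt1, Gata4, Inha, Rhox5, Cyp11a1, Hsd3b1, Hsd17b3, Star and Fshr, were under the floor in both pools.

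Of 17 macrophage markers 16 were lower, among them Cd163 (85.7 in wild type and under the floor in knockout, at least 2.68-fold), while Fcgr3 was higher (0.44), and they summed to 6201 and 3749. Of 12 endothelial markers 11 were lower, from Ramp2 (-2.17) to Cldn5 (0.01), and they summed to 1650 and 815. Their medians were -0.86 and -1.03 as measured, or -0.78 and -0.96 with values under the floor set to it, beside -0.87 for the 10 genes. Skeletal and smooth muscle markers, 6 of them measured, had a median of 0.50, from Myl1 (-1.18) to Myh11 (1.04), and summed to 4662 and 6761.

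Ppard itself was under the floor in both pools (6.58 and 6.27 on 1425703_at), so it gives no check of the genotype labels. Spiked control transcripts differed by 0.02 to 0.16 over the 4 probe sets of cre. Those of dap differed by -1.03 to -0.57 over 6 probe sets. Other spiked controls above the floor in both pools ran from -0.21 (bioB) to 0.21 (bioD). The range of dap takes in the differences of Mgll, Cd36 and Plin2 and comes close to that of Pnpla2 (-1.09). Between probe sets of 1 gene, the log2 difference varied with a median SD of 0.25 over the 2137 genes, and the SD was under 0.75 for 90% of them. Both measures cover technical disagreement only, not differences between animals.

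**Figure D4:**
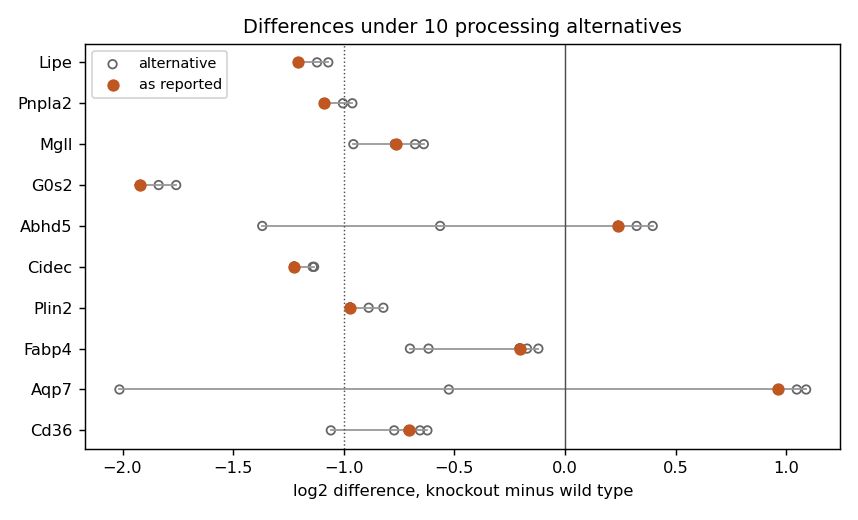
Log2 difference (knockout minus wild type) of the 10 genes as reported (filled) and under 10 processing alternatives (open); the dotted line marks 2-fold lower. G0s2, Cidec and Lipe stay left of the dotted line under all 10, whereas Abhd5 and Aqp7 lie on both sides of 0. The lowest point of Aqp7 uses a knockout value under the floor and is at least 2.31-fold lower.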

How the data were processed

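Total RNA of epididymal fat from 5 animals per genotype was pooled, and 1 array per pool was hybridised. The deposited intensities came from GCRMA 2.20 in the authors' hands, according to the submitters' processing notes. This method corrects background from probe sequence, normalises quantiles and summarises probes. The probe annotation supplied for the 22690 probe sets is that of a smaller array than the one in the design text. Values run from 1.91 to 36322 and are therefore linear, and log2 was taken here. Quantile normalisation hides a shift shared by most genes, and probe sets near background give unstable folds.

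Genes were named from the array annotation, updated by Entrez identifier to GRCm38.p6 symbols (20364 of 20393 probe sets naming 1 gene matched). Probe sets naming several genes (691) or none (1606) were left out. A probe set was kept at log2 of 5 or more on at least 1 array. A gene took its kept probe set of highest mean. A value under the floor gives an "at least" fold, with that value set to 32. Promoter windows are RefSeq's; Fabp4 has none in the table used.

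No test exists with 1 array per genotype. Genes were named by rule: all 10 genes with all their probe sets, Ppard, the extremes of each list, and relatives of the 10. The genes and lists were chosen with earlier results of these data known. Adipoq, Abhd6, Abhd12 and the Sertoli and Leydig markers between the extremes were named outside this rule, after their values were seen. The counting code, not the counts reported, was checked on simulated arrays with planted differences. Python 3.11.15, pandas 2.3.3 and statsmodels 0.14.6 were used.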

Additional observations from a re-analysis of the deposited data

How the results depend on the processing

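There were 100 alternative values of single genes (10 genes under 10 settings each). Of these, 93 moved by less than 0.25 on the log2 scale, the median SD between probe sets of a gene, and 7 by more. All 7 came from another way of combining probe sets. The 93 are no measure of stability, as many could not move. Other floors, symbols as annotated and values set to the floor left all 10 genes unchanged. Combining probe sets otherwise cannot move the 5 genes with 1 kept probe set. Centring shifts every gene alike, by 0.08. With the mean over probe sets, Abhd5 was at -0.56, Aqp7 at -0.53 (-0.12 with the value under the floor set to it, an alternative chosen after seeing the data), Cd36 at -1.06 and Fabp4 at -0.70. With the probe set of median difference (the lower of the middle pair), Abhd5 was at -1.37, Fabp4 at -0.62 and Aqp7, on a knockout value under the floor, at least 2.31-fold lower, and the median of the 10 genes moved from -0.87 to -1.15. The count of genes at least 2-fold higher was 0 and became 1 (Aqp7) when differences were centred on the median of all genes or the intensity trend was removed. Of all genes, 14.8% and 14.2% were at least 2-fold higher under these 2 settings. The count of genes at least 2-fold lower was 4 and ran from 3 (trend removed, Pnpla2 at -0.96) to 6 (probe set of median difference). The share of all genes moved as well, to 7.62% with the trend removed and to 10.2% with the probe set of median difference. The count of probe sets at least 2-fold lower was 9 and fell to 8 without probe sets of shared sequence and with the trend removed. The share of all probe sets under these settings was not counted. The other floors (4, 6 or none), symbols as annotated and values set to the floor left these counts as they were. Over these settings the share of all genes at least 2-fold lower ran from 4.97% (no floor) to 10.3% (floor of 6). No paired analysis was possible because each genotype has 1 pool. No replicate could be left out, so error between animals is unknown; at Aqp7, near the floor, the signal limits what can be said.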
